A study of Homo sapiens with 4 samples.

Results

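To explore where IGF2BP3 meets the leaders of mRNAs in OE-19 cells, the 5′ UTR peaks of the IGF2BP3 RIP-seq data were analyzed. OE-19 is an established human cancer line derived from an adenocarcinoma at the junction of esophagus and stomach. In RIP-seq, a protein is captured from a lysate with an antibody and the bound RNA is sequenced. The series held 4 samples, which were 2 IGF2BP3 RIP replicates and 2 input replicates, all from OE-19 cells for which no treatment is given. The labels state that the cells were fixed with UV light, which the RIP method of the study does not mention. The RIP samples were made with an anti-IGF2BP3 antibody and the input samples without one. A separate peak list was given for each RIP replicate, and the inputs were not analysed here. The study calls its RIP-seq replicates biological, whereas the labels do not say whether they came from separate cultures. All values are therefore descriptions of 2 samples of 1 group, and no test of a difference was possible.

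A peak counted as a 5′ UTR peak when it was at most 1000 bp wide and its summit, the base of highest signal, lay on exactly 1 MANE Select mRNA, upstream of the start codon. MANE Select is the set of 1 representative transcript per coding gene, taken here from GENCODE release 44. A distance of more than 200 nt from the stop codon was also asked for, which removed 0 peaks. The rule gave 1507 of 44622 deposited peaks in replicate 1 and 1410 of 42723 in replicate 2, or 2917 of 87345 in all. The limit on width removed 1 peak in replicate 1 and 0 in replicate 2. The rule used position only, so position in the 5′ UTR is no finding, whereas fold, place within the leader, sequence and sharing between replicates were free to vary.

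IGF2BP3 is an oncofetal RNA-binding protein with RRM and KH domains that is best known as a reader of m6A and a stabilizer of mRNAs through sites in coding sequences and 3′ UTRs. The 5′ UTR, or leader, is the stretch that the small ribosomal subunit scans from the cap to the start codon. Upstream start codons, folded RNA and protein-bound elements in the leader are known to set how often scanning reaches the main reading frame.

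The following windows show the RNA under the strongest peaks on which the replicates met. Each is 30 bases of the mRNA around the summit, taken 5′ to 3′ on the strand of the gene from GENCODE 44 and hg38. For each of the 15 strongest genes described further on, the overlapping pair of peaks with the highest mean fold was taken. The windows belong to the genes in which the 2 summits of that pair lay at most 5 nt apart. Other pairs within this distance, as on KIAA0040 and PPARA, are not shown. Capitals mark GGAC, the core of the m6A consensus. They also mark the 3 strings of 5 bases with the highest ratio of summit share to leader share, which were chosen after their values were seen. These were ACCGC (in the NETO2 window), CAGCA (in the MBNL1 window) and AAGGA (in the ALDH3B2 window). In order, they lie at chr10:24723641-24723670 (minus strand), chr11:67674449-67674478 (minus), chrX:153334180-153334209 (plus), chr12:31970300-31970329 (plus), chr3:152299498-152299527 (plus) and chr16:47143657-47143686 (minus).
ARHGAP21: gcgcgggatcgtccggctgcggggtccggc
ALDH3B2: gtggaggtgcagcgAAGGACccaggggcag
ZNF275: ggctgggcacgggcggctccgtggcgcttc
RESF1: cagaattatacctagaagtctactaatgga
MBNL1: ctgtgacgaCAGCAcatccaccctccacct
NETO2: gcgccgagccgtgagcgccgagccACCGCc

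Each window lay within 1 exon of a 5′ UTR. The ARHGAP21, ALDH3B2, ZNF275 and NETO2 windows lay in the first exon, the MBNL1 window in exon 2 and the RESF1 window in exon 3. In ALDH3B2, AAGGA and GGAC overlap in 1 run. No run of the marked letters stood whole in the ARHGAP21, ZNF275 and RESF1 windows as printed. The RESF1 window ends in TGGA, however, and the next base of the mRNA completes TGGAC, which holds GGAC. The GC content of the RESF1 window was 33.3%, and that of the other windows ran from 60% in MBNL1 to 83.3% in ARHGAP21 and NETO2.

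Peaks in 5′ UTRs were a small part of the IGF2BP3 signal on mRNAs. They made up 3.81% of the peaks on mRNAs in replicate 1 and 3.68% in replicate 2 (3.75% ± 0.0895, SD, n = 2). Per length, counted over mRNAs with a peak anywhere, the 5′ UTR held 1.09 and 1.06 summits per kb (1.07 ± 0.0187, SD, n = 2). The CDS held 2.21 and 2.24 per kb, and the window of 200 nt to each side of the stop codon held 1.40 and 1.37. The 3′ UTR held 0.419 and 0.386 per kb. The 4 regions kept this order in both replicates, and the gaps between them were wider than the gaps between replicates.

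The peaks lay on 1284 mRNAs in replicate 1 and 1187 in replicate 2. Of these, 684 mRNAs had a 5′ UTR peak in both replicates, which is 53.3% of the replicate 1 mRNAs and 57.6% of the replicate 2 mRNAs. They were 13.2% of the 5171 mRNAs with a peak anywhere in both replicates. In 93 of the 684 mRNAs, no 5′ UTR peak of one replicate overlapped one of the other, so that the leader was shared but the site was not. Most leaders carried 1 peak, on 1109 mRNAs in replicate 1 and 1007 in replicate 2. Leaders with 2 peaks numbered 140 and 146, and leaders with at least 3 numbered 35 and 34.

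Most of the peaks were weak by the measures of the caller. The fold enrichment, the caller's ratio of RIP signal to local background at the summit, ran from 1.87 to 8.07 in replicate 1 and from 1.83 to 6.92 in replicate 2. Its median was 2.83 and 2.90 (2.86 ± 0.0450, SD, n = 2), against 2.964 and 3.001 for CDS peaks (2.98 ± 0.0265), 2.93 in both replicates around stop codons, and 2.78 and 2.75 in 3′ UTRs. The distance to the CDS was −0.119 on average and had the same sign in both replicates. A caller's q of at most 0.05 was reached by 120 of the 5′ UTR peaks in replicate 1 (7.96%) and 94 in replicate 2 (6.67%). The share over all deposited peaks was 9.77% in replicate 1 and 7.47% in replicate 2, so that the leaders stood a little below the lists as a whole. In 66.3% and 69.1% of the 5′ UTR peaks, the caller's q was 1, so that a listed peak is not by itself a called one. No like share over all deposited peaks is given here. Folds also came in steps, with 403 distinct values among the 1507 peaks of replicate 1 and 391 among the 1410 of replicate 2. Peaks on different genes therefore often shared the same fold, and a rank among them carries no more precision than those steps.

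Sharing between replicates was lower in leaders than over the lists. A 5′ UTR peak was overlapped by a peak of the other replicate, by at least 1 bp, in 776 cases in replicate 1 (51.5%) and 792 in replicate 2 (56.2%). The share over all deposited peaks was 60.2% in replicate 1 and 64.2% in replicate 2. For CDS peaks it was 63.0% and 64.8%, and for 3′ UTR peaks 51.2% and 63.3%, so that in replicate 1 leaders and 3′ UTRs were alike. Where 5′ UTR peaks overlapped each other, in 678 pairs on 591 mRNAs, the summits were a median of 21 nt apart, within 10 nt in 33.8% and within 30 nt in 58.7% of pairs. The folds of a pair followed each other loosely, with Pearson's r = 0.253 on log2 values and Spearman's coefficient = 0.237 across pairs, which share libraries and are not replicates. Both peaks of a pair reached a q of at most 0.05 in 19 of the 678 pairs, and 1 of the 2 did in 109 pairs. No like count of pairs over all deposited peaks is given here, where 9.77% and 7.47% of peaks reached this q.

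**Figure D1:**
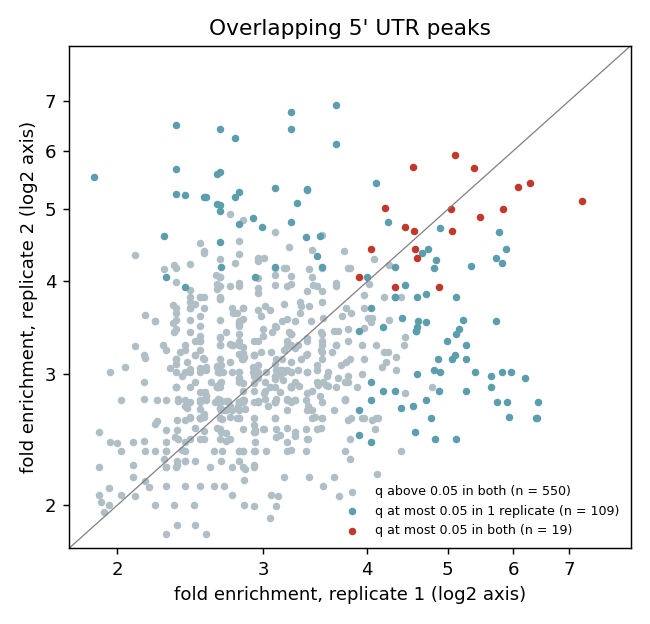
Each point is 1 of the 678 pairs of overlapping 5′ UTR peaks, with fold enrichment in replicate 1 on the horizontal and in replicate 2 on the vertical axis, both on log2 scales, and a line of equal fold. The 19 pairs with a q of at most 0.05 in both replicates are red and sit at the upper right, while many of the 109 pairs that reached it in 1 replicate lie far from the line.

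The exon structure of the leader went with large differences in peak density. Leaders that lay whole in 1 exon held 0.714 and 0.681 summits per kb. In leaders split over several exons, the first exon held 1.35 per kb in both replicates, the middle exons 2.29 in both, and the leader part of the exon with the start codon 1.11 and 1.00. Middle leader exons thus lay near the CDS in density, at 2.29 against 2.21 and 2.24. The share of called peaks, with q no higher than 0.05, was also lowest in 1-exon leaders but did not follow the density elsewhere. It was 4.67% and 3.49% in 1-exon leaders, 7.95% and 6.93% in first exons, 11.4% and 10.8% in middle exons and 11.8% and 8.19% in start codon exons. Split leaders held 68.7% and 69.5% of the peaks.

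**Figure D2:**
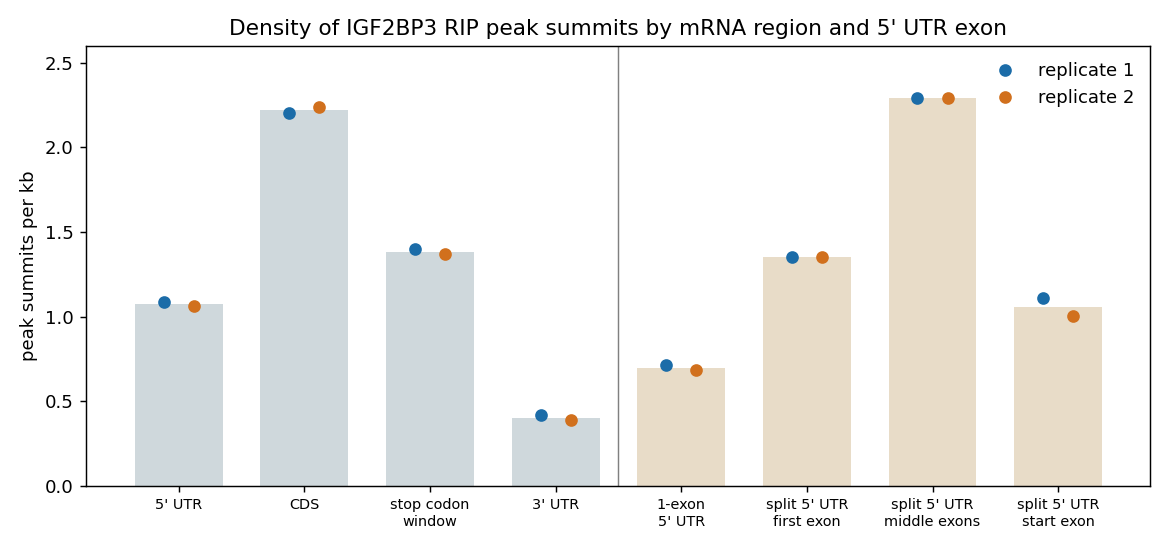
Peak summits per kb are shown for 4 regions of the mRNA on the left and for 4 kinds of 5′ UTR exon on the right, with a point for each replicate and a bar at their mean. Middle exons of split leaders reached the level of the CDS, and leaders in 1 exon held less than any other kind of leader exon. Only the leader part was counted of an exon that also holds coding sequence.

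The difference between split and unsplit leaders was also present at like leader length. Among leaders of over 200 and up to 400 nt, those in 1 exon held 0.680 and 0.608 summits per kb and those in several exons 1.61 and 1.67. Among leaders of over 400 and up to 800 nt, the values were 0.460 and 0.452 against 1.41 and 1.31. Among leaders of over 100 and up to 200 nt, the gap was smaller, at 1.10 and 1.03 against 1.54 and 1.55. In each class of length, both replicates of the split leaders lay above both replicates of the unsplit ones. Counted per leader of over 200 and up to 400 nt, 18.9% and 16.8% of unsplit leaders held a peak, against 38.4% and 38.7% of split ones. Like length is not like number of exons. As an exon rarely held more than 1 summit, split leaders could hold more, and how much of the gap comes from this was not tested.

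An exon of a leader almost always held at most 1 peak. Of the exons of split leaders with a summit, 1030 in replicate 1 and 975 in replicate 2, exactly 1 summit was found in 99.4% and 99.6%. Unsplit leaders held exactly 1 in 99.1% and 98.8% of those with any. The same was seen in wholly coding exons that were neither the first nor the last of the mRNA and ended before the stop codon window. Of these, 99.0% and 99.1% of the exons with a summit held 1. Among those of up to 250 nt the share was 100%, and among longer ones it was 88.8% and 89.2%. A list gives 1 summit per peak. How far these shares, in leaders and coding exons, come from the way the caller joins signal into peaks was not tested. With 1 summit for each exon, a density per kb falls as exons get longer, so the share of exons with a summit is the more direct measure. It is given here for middle and first leader exons and wholly coding exons only. The exon of a 1-exon leader and the start codon exon can run on into the CDS, and summits in their coding part were not counted. Whether this bears on the lower density of 1-exon leaders was not tested. The share of exons with a summit rose with exon length up to 250 nt. Among middle leader exons, it was 20.4% and 23.3% up to 100 nt, 31.7% and 26.5% from there up to 150 nt, and 35.1% and 36.5% from there up to 250 nt. Over 250 nt it was 35.1% and 33.3%, among 37 and 39 exons. First leader exons of the shorter classes had a summit in 11.9% and 12%, 20.0% and 23.6%, and 31.0% and 30.5%. The wholly coding exons of these classes had one in 23.2% and 24.6%, 38.0% and 38.7%, and 49.3% and 48.8%. Per exon of like length, the CDS therefore lay above both kinds of leader exon in each class and each replicate.

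Some leaders carried a peak in nearly every exon. At least 2 leader exons held a summit in 166 mRNAs of replicate 1 and 172 of replicate 2, and at least 3 did in 33 and 31. TAB3, an adaptor of the TAK1 kinase, held 5 peaks in each replicate, 1 in each of the 5 exons of its 523-nt leader, with folds of 2.64 to 4.70 in replicate 1 and 2.62 to 3.81 in replicate 2. ATXN1, whose protein carries the polyglutamine tract of spinocerebellar ataxia, held 6 and 5 peaks on a leader of 7 exons and 892 nt, with folds of 2.41 to 4.60 and 2.49 to 3.68. EIF4G3, a scaffold of the cap-binding complex, held 5 and 4 on its 631-nt leader of 5 exons. FAM135A held 4 and 3 peaks on 4 exons. MBD5, a protein with a methyl-CpG-binding domain, also held 4 and 3 peaks, on 5 exons and 1518 nt. These were the 5 mRNAs with the most 5′ UTR peaks, of which the last pair tied with ZBTB20, ZBTB38 and ZMIZ1 at 7 over both replicates and came first by alphabet.

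**Figure D3:**
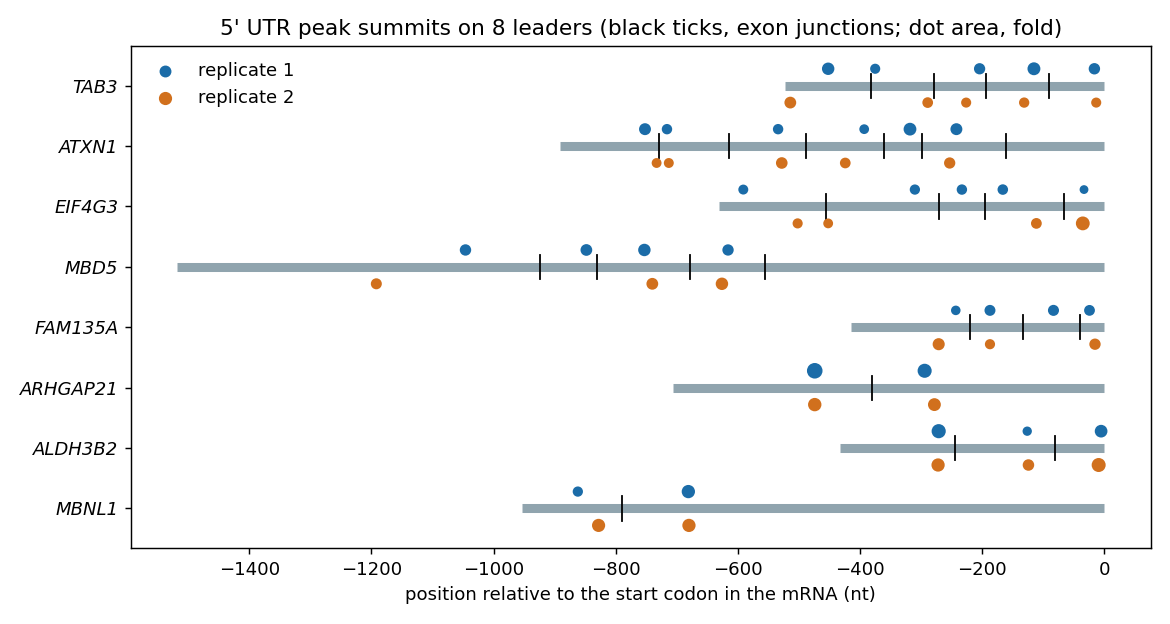
The leaders of 8 mRNAs are drawn to scale in mRNA coordinates, with 0 at the start codon, black ticks at exon junctions, and dots at the summits of replicate 1 above and replicate 2 below the bar, the dot area following the fold. TAB3 shows 1 summit per exon in both replicates, and each replicate 2 peak of TAB3, ATXN1, EIF4G3 and MBD5 overlapped a replicate 1 peak, although the summits did not always fall at the same base.

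Along the leader, summits lay closer to the start codon than the positions of the same leaders. The median summit was 104 nt upstream of the start codon in replicate 1 and 115 nt in replicate 2. Summits within 100 nt of the start codon made up 49.0% and 45.7%, against 41.0% and 41.1% when every position of the same leader was counted equally. The density was 1.42 and 1.33 per kb within 50 nt of the start codon and fell to 0.571 and 0.629 beyond 600 nt. At the other end, the first 30 nt of the mRNA held 3.58% and 5.39% of summits, against 13.3% of positions in both replicates. Counted from the first base, the density peaked at 1.62 per kb past 150 and up to 200 nt in replicate 1 and at 1.44 per kb past 200 and up to 300 nt in replicate 2. Beyond 600 nt from the first base it was also low, at 0.679 and 0.585 per kb. Only leaders longer than 600 nt have positions that far from either end. The densities by distance therefore mix place in the leader with leader length.

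**Figure D4:**
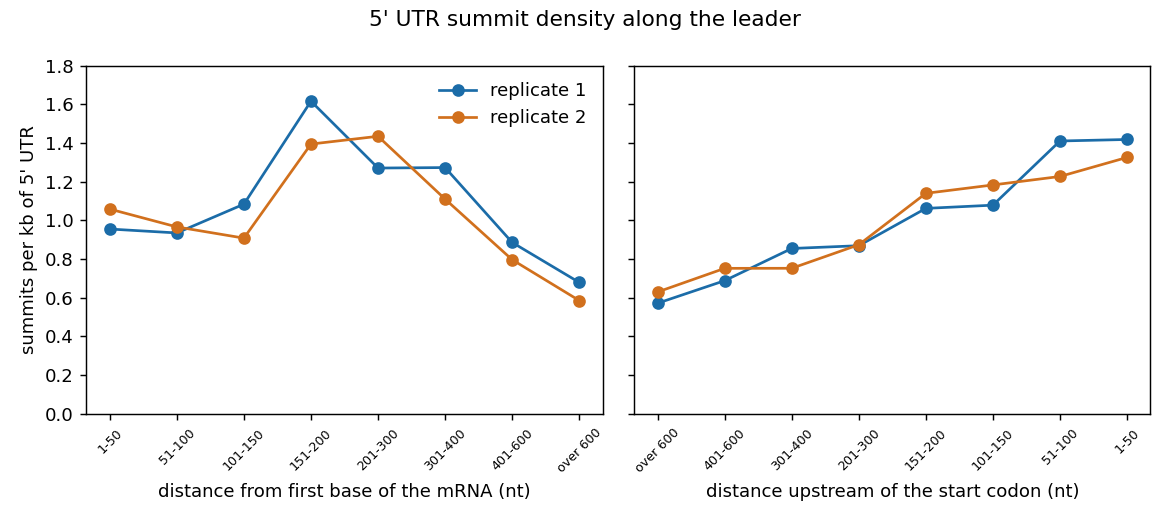
Summits per kb of 5′ UTR are plotted by distance from the first base of the mRNA (left) and by distance upstream of the start codon (right), with a line for each replicate. The density rises toward the start codon, from 0.571 and 0.629 beyond 600 nt to 1.42 and 1.33 in the last 50 nt. Only leaders longer than 600 nt reach the bins beyond 600 nt, so that place and leader length are mixed in both panels.

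Many of these peaks were not confined to the leader. The peak, though not its summit, ran over the start codon in 407 cases (27.0%) in replicate 1 and 342 (24.3%) in replicate 2. It ran into an intron in 25.6% and 24.6% and past the first base of the mRNA in 6.70% and 6.81%. The median width was 103 and 99.5 bp. Another gene had an exon at the summit in 123 peaks of each replicate (8.16% and 8.72%), on the opposite strand in 63 and 67 of them. The lists carry no strand, so these peaks cannot be assigned to 1 gene with certainty. In 47 and 50 peaks, another coding transcript of the same gene had the summit in an exon at or past its start codon. Transcripts with no exon at the summit were not counted.

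The mRNAs with a 5′ UTR peak in both replicates had long and interrupted leaders. Their leader had a median of 315 nt, against 141 nt in the 3534 mRNAs that had a peak in both replicates but no 5′ UTR peak in either. It was split over exons in 70.8% against 32.2%, held an upstream ATG in 81.4% against 42.2%, and had a median GC content of 65.7% against 68.3%. The CDS was of like length, with medians of 1922 and 1900 nt. A longer leader offers more positions for a summit, and 6.26% of leaders of up to 100 nt held a peak in replicate 1 against 42.6% of those over 800 nt. Per kb, by contrast, the density was 1.15 and 1.10 up to 100 nt and 0.582 and 0.607 over 800 nt. Across leaders of different GC content, the density was highest at 50% to 60% GC, at 1.25 per kb in both replicates, and lowest at 80% GC or more, at 0.836 and 0.659.

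Leader peaks mostly came with peaks elsewhere on the same mRNA. Only 114 mRNAs in replicate 1 (8.88%) and 96 in replicate 2 (8.09%) had no peak outside the 5′ UTR. Among mRNAs with any CDS peak, those with a 5′ UTR peak held a median of 5 CDS peaks in both replicates, against 3 over all. A 5′ UTR peak lay above the median fold of the CDS peaks of its own mRNA in 38.7% and 42.3% of cases. In 202 of 1090 mRNAs in replicate 1 (18.5%) and 186 of 1017 in replicate 2 (18.3%), the highest 5′ UTR peak exceeded the highest CDS peak. These maxima were taken over unlike numbers of peaks, with a median of 5 in the CDS, whereas most leaders carried 1. The shares were not adjusted for this.

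The 15 mRNAs described next were chosen by fold. In each replicate, the highest fold was taken among leader peaks that overlapped a leader peak of the other replicate. These folds were averaged over the replicates, and they need not come from the same site. ARHGAP21, a GTPase-activating protein, had folds of 7.25 and 5.13 at the same base of its first exon, 474 nt upstream of the start codon, with q of 1.36e-06 and 0.0127. A further peak in its second exon had folds of 5.76 and 4.67. Its 17 CDS peaks had medians of 3.60 and 4.08, and the highest of them, at 8.12 and 7.74, exceeded both leader peaks.

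R3HDM1, which encodes a protein with an R3H domain, had folds of 6.28 and 5.43 near the 5′ end of its first exon, at summits 14 nt apart, and 5.47 and 4.88 in its second exon. RIPOR1 had 1 leader peak, at 6.08 and 5.36 with summits 15 nt apart, on a leader of only 109 nt. MBNL1, a splicing regulator of the muscleblind family, had folds of 5.05 and 5.01 with summits 1 nt apart in its second exon, and q of 0.00414 and 0.0072. In RESF1, a retroelement silencing factor, the fold was 3.67 in replicate 1 and 6.92 in replicate 2 at summits 1 nt apart, and the q was 0.483 and 1.90e-06. The position of the RESF1 peak was thus shared while its height was not.

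MEF2D, a MADS-box factor, had folds of 5.37 and 5.69 in its first exon, at summits 84 nt apart. ZNF275, a zinc finger protein, had 5.11 and 5.92 at summits 3 nt apart, above the medians of 2.96 and 3.30 of its CDS peaks. NFATC3, a factor activated through calcineurin, had 5.88 and 4.42 in its 1-exon leader. Its summits were 88 nt apart, and the q was 0.000948 and 0.270. The highest leader peaks of PPARA, a nuclear receptor of fatty acid oxidation, were 5.71 in its exon 3 in replicate 1 and 5.34 in its second exon in replicate 2. The same change of site between replicates was seen for the transcriptional coregulator ZMIZ1, with 5.63 in exon 3 and 6.42 in exon 4.

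ALDH3B2, an aldehyde dehydrogenase, had its highest peak in its first exon in replicate 1, at 5.83, and in its exon 3 in replicate 2, at 5.70. At its first exon, the replicate 2 fold was 5.01, with summits 1 nt apart. NETO2, an auxiliary subunit of kainate receptors, had 5.81 and 4.24 at summits 1 nt apart, with q of 0.00488 and 0.161. TAB2, the paralogue of TAB3, had 3.24 and 6.76, below its CDS median of 6.35 in replicate 1 and above that of 5.75 in replicate 2. The TAB2 summits were 56 nt apart, and its replicate 1 peak did not reach a q of at most 0.05. KIAA0040 had 6.42 and 6.13, and GPR160, an orphan G protein-coupled receptor, had 5.26 and 5.25, both at different sites in the 2 replicates. In all, the highest peaks of the replicates overlapped in 10 of these 15 mRNAs and lay at different sites in 5.

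**Figure D5:**
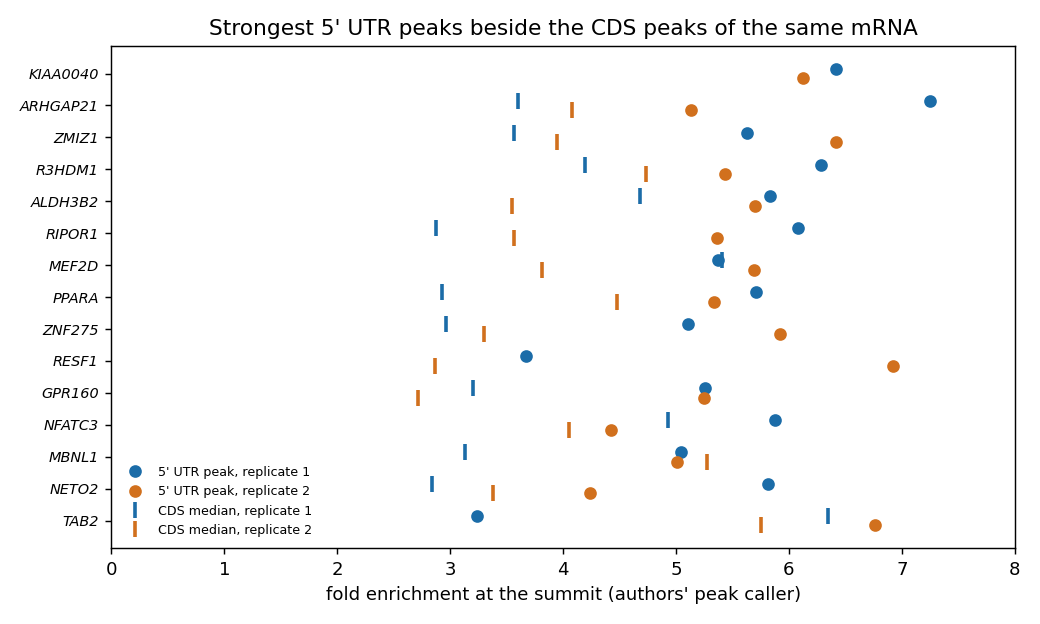
For each of the 15 mRNAs described above, dots give the fold of the highest 5′ UTR peak that overlapped a 5′ UTR peak of the other replicate. Ticks give the median fold of the CDS peaks of the same mRNA, by replicate. The dots of an mRNA need not come from the same site. The mRNAs were chosen for high leader folds, so that dots to the right of the ticks follow from the choice, as in ARHGAP21 at 7.25 against 3.60. Dots to the left are those of TAB2 and MEF2D in replicate 1, at 3.24 against 6.35 and 5.37 against 5.40, and of MBNL1 in replicate 2, at 5.01 against 5.27. KIAA0040 had no CDS peak, and RESF1 had none in replicate 1.

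The highest single fold, 8.07 in replicate 1, was not among these and was picked for its value. It lay in exon 3 of KMT2E, a SET domain protein, 8 nt upstream of the start codon at a base that is also exonic in another gene. The replicate 2 peak over it had no summit in the 5′ UTR. The 2 leader peaks of KMT2E in replicate 2 had folds of 2.06 and 2.46. LPP, a LIM domain protein of focal adhesions, reached a q of at most 0.05 in both replicates with folds of 5.71 and 5.12, at different exons. The mRNAs with a leader peak of such a q numbered 113 in replicate 1, 86 in replicate 2 and 27 in both. Over all deposited peaks, only 9.77% and 7.47% reached this q, so these counts are not particular to leaders.

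Gene groups known for regulation through the leader gave at most 10 mRNAs each with an IGF2BP3 peak anywhere in both replicates. As a share this was not low in every group. Over all mRNAs it was 5171 of 19061, for mRNAs reported to hold an internal ribosome entry site 10 of 25, and for iron-responsive element mRNAs 2 of 6. Of 95 TOP mRNAs, which encode ribosomal proteins and translation factors and start with a pyrimidine tract, 3 had a peak anywhere in both replicates and 0 had a leader peak in both. NAP1L1 had 1, in replicate 2 alone, at 2.83. Of 20 mRNAs with a known regulatory upstream reading frame, 9 had a peak in both replicates and 1 a leader peak in both. That was SLC35A4, whose upstream frame itself is translated, with folds of 2.45 and 3.68 at summits 1 nt apart, and no other peak on the mRNA. Among iron-responsive element mRNAs, EPAS1, which encodes HIF-2α, was 1 of 2, with 2.10 and 4.34. Among mRNAs reported to hold an internal ribosome entry site, 2 of 10 had a leader peak in both. These were SLC7A1, the cationic amino acid transporter, with 3.83 and 3.63 at its highest peaks, and the Wnt pathway factor LEF1, with 2 peaks of 2.41 in replicate 1, of which 1 overlapped its peak of 2.36 in replicate 2. In the polyamine pathway, AZIN1, the antizyme inhibitor, had 2.44 in replicate 1 alone. With so few mRNAs in each group, these shares cannot be told from the 13.2% over all mRNAs.

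Classical IGF2BP targets and the cell cycle genes of the study were then looked at. Among the classical targets, CD44, a cell adhesion receptor, and HMGA2, a chromatin protein, had leader peaks of 2.64 and 2.65 in replicate 1 alone. None of CDC25A, CCNE2, CDC6, CDK4, CHEK2, E2F1, E2F3, WEE1, CCND1 and MYC had a 5′ UTR peak in either replicate. Of these 10, CDC25A, CCNE2 and WEE1 had a peak elsewhere in both replicates, with 1, 3 and 2 peaks in replicate 1 and 1, 4 and 2 in replicate 2. MYC had 2 peaks in replicate 1 alone, and the rest had none. Leader peaks could thus be looked for on mRNAs with signal in both replicates in only 3. Among receptor tyrosine kinases, 0 of 9 had a leader peak in both replicates, and among translation initiation factors EIF4G3 was 1 of 6.

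Larger families gave counts on both sides of the background of 13.2%. Zinc finger factors had a leader peak in both replicates in 44 of 202 mRNAs with a peak (21.8%), and their leaders held 1.59 and 1.61 summits per kb, against 1.16 and 1.11 over all mRNAs with a peak in both replicates. ZNF468 had folds of 3.24 and 6.42 at a base that another gene also covers, ZNF496 4.44 and 4.77, and ZBTB38, a zinc finger protein that binds methylated DNA, 4.60 and 4.33, the last 2 at different exons in the replicates. Genes with symbols of ubiquitin-specific proteases and ubiquitin-conjugating enzymes had one in 14 of 49 (28.6%), with 1.62 and 1.70 summits per kb. The median leader of the mRNAs with a peak in both replicates was 214.5 nt in the zinc finger group, 182 nt in the ubiquitin group and 177 nt over all. The conjugating enzymes UBE2E3, UBE2D4 and UBE2J1 had highest folds of 2.77 and 6.23, 3.53 and 3.15, and 2.34 and 4.21. USP6NL, with 3.67 and 6.40 at different exons, carries the symbol prefix but is a GTPase-activating protein for RAB proteins.

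Solute carriers, with 18 of 113 (15.9%), and genes with RAB symbols, with 5 of 35 (14.3%), were close to the background. The glycine transporter SLC6A9 had folds of 4.60 and 4.31, the mitochondrial carrier SLC25A40 3.24 and 3.93 at different exons, and the amino acid transporter SLC36A1 3.80 and 3.33. Among RAB GTPases, RAB3B had 4.32 and 4.18, RAB14 4.04 and 3.53, RAB3D 3.50 and 2.81, and RAB28 2.75 and 2.68. Protein phosphatase subunits stood below, with 1 of 33 (3.03%), which was PPP2R5E, a regulatory subunit of protein phosphatase PP2A, at 2.48 and 3.73. RNA-binding splicing factors had 0 of 14. In RBM47, which belongs to that group, the leader peak was 5.99 in replicate 2 and none was listed in replicate 1.

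The sequence at the summits differed little from the rest of the same leaders. The RNA 30 nt on either side of each summit was compared with the same window at every position of its own leader, on the sense strand, in 1453 and 1334 peaks. The GC content was 64.7% at summits and 64.0% over the leader in replicate 1, and 65.1% and 63.8% in replicate 2. GGAC was found in 27.5% of summit windows against 26.7% over the leader in replicate 1, and in 24.6% against 25.1% in replicate 2. TGGAC, the DNA form of the UGGAC consensus, was found in 6.47% against 5.86% and in 5.10% against 5.66%. For both strings the replicates differed in sign, so no direction can be given. CATA, CATC or CATT, a known CA-rich IGF2BP element, was found in 23.6% against 24.7% and in 24.6% against 25.6%. Upstream ATG was found in 27.6% against 28.8% and in 29.01% against 29.43%. CACA was found in 14.7% against 13.3% and in 14.1% against 12.7%, above the leader in both replicates.

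The clearest difference in sequence was a lack of U-rich strings. Among 625 strings of 5 bases present in at least 3% of leader windows, TTTTT had the lowest ratio of summit share to leader share. It was found in 2.48% of summit windows against 4.31% over the leaders in replicate 1, and in 2.47% against 4.36% in replicate 2, a mean ratio of 0.571. TTTAA (0.588), CTTTT (0.642) and ATTTT (0.650) followed. At the other end were ACCGC at 1.31, with 7.43% against 6.17% and 8.62% against 6.12%, and CAGCA and AAGGA, both at 1.28. Across the 625 strings, which overlap in sequence and are not independent, the log2 ratios of the replicates had r = 0.568.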

How the data were processed

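RIP-seq was performed on OE-19 cells with 2 RIP and 2 input samples, grouped by title. According to the methods of the study, Tophat2 was used for mapping to hg38 and MACS2 for peak calling, at default settings, while the submitters' processing notes name fastp, HISAT2 and MACS2. The lists hold peaks with a q of 1, which the default limit of MACS2 on q would not keep. Versions and the control library of the caller were not given in the sources used here. The authors deposited 1 peak list per RIP sample, with a fold enrichment (a ratio) and with −log10 p and −log10 q at the summit, all as given by their caller. The lists hold no read depth, and counting error is therefore not given. How strictly weak peaks were listed, and how far signal was joined into 1 peak, could change every count here.

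Summits were placed on 19061 MANE Select mRNAs of GENCODE release 44 without regard to strand. Coordinates are in hg38 with the first base as 1. Densities were computed over mRNAs with a peak anywhere, and shared peaks overlapped by at least 1 bp. The own-leader share is the mean over every position of the leader of each summit, in windows of 61 nt. Python 3.11.15, numpy 2.4.6 and pandas 2.3.3 were used, and the procedure was tested on simulated data. Members and lists were chosen with earlier results of these data known.

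Genes were named by rule: the 15 mRNAs with the highest mean of each replicate's highest 5′ UTR fold among peaks overlapping a 5′ UTR peak of the other, the 5 with the most peaks, up to 10 with a q of at most 0.05 in both replicates, up to 4 per gene list with a peak in both, and the cell cycle genes of the study. Others are said to be chosen by value or belong to a list. Alternatives were a q of at most 0.05, shared peaks, a 50% overlap, the peak midpoint, a window of 50 nt on either side, 5′ UTR in every coding transcript with an exon at the summit, no other gene at the summit, and leaving out each replicate. Some genes of the list of IGF2BP family members and classical targets are not reported here.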

Additional observations from a re-analysis of the deposited data

How the results depend on the processing

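Of 58 values recomputed with both replicates, 35 moved by less than the spread between replicates or, for counts, by less than 1.5 times, 16 moved by more and 7 changed sign. With peaks of a q of at most 0.05, the number of 5′ UTR peaks per replicate fell from 1458.5 to 107, their share from 3.75% to 3.09% and the shared mRNAs from 684 to 27. Overlap was then counted only with peaks of the other replicate that also reached this q, and was 20.3%. It cannot be set beside the 53.8% of the main setting, which counts overlap with any listed peak. The share within 100 nt of the start codon was 53.1%. The differences between summits and their own leaders became −0.895 points for GC, −0.983 for GGAC and 0.0742 for CATA, CATC or CATT, all of opposite sign, and −2.01 for upstream ATG. With peaks overlapped by any listed peak of the other replicate, the number was 784 and the share 3.22%. The share with a q of at most 0.05 was 11.1%, against 7.31% over all 5′ UTR peaks. The fold difference to the CDS was −0.0970 and the CATA, CATC or CATT difference −2.11. Asking for 50% overlap gave 35.5%. With the peak midpoint, the CATA, CATC or CATT difference turned to 0.766. With 50 nt on either side, it was 0.966, that of GC −0.0606 and that of GGAC −0.597, all reversed. With 5′ UTR in every coding transcript that has an exon at the summit, the share was 3.62% and the CATA, CATC or CATT difference −1.26. With no other gene at the summit they were 3.59% and −1.21. Of the 4 sequence differences recomputed, that of upstream ATG alone kept its sign under each of these alternatives, and the 5-base strings were not recomputed. Leaving out each replicate gave the values of the other, with GGAC differences of −0.472 and 0.834. No paired analysis was possible because there is 1 group with peak lists. Read depth, which is unknown, limits what a missing peak says.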
